A study of Homo sapiens and Mus musculus with 12 samples.

Results

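In K562 cells LSD1 had a peak in or near 9 of 10 erythroid and stem cell transcription factor genes, beside 29.9% of all protein-coding genes. Of these 18 peaks 7 lay inside ZFPM1, and the strongest lay upstream of NFE2, inside COPZ1. In THP1 cells 5 of the 10 genes had an SPI1 peak, beside 9.57% of all genes. Only 2 did with 20 kb around the start, beside 5.32%. GFI1 peaks were fewer, at NFE2 in THP1 cells (17.5% of all genes) and at ZFPM1 and LMO2 in control K562 cells (2.83%).

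The 10 genes were GATA1, GATA2, TAL1, LMO2, LYL1, KLF1, NFE2, ZFPM1, BCL11A and IKZF1, out of 20033 protein-coding genes of GENCODE release 44. They were chosen by name, with earlier results of these data known. Every peak that touched the gene body or the 20 kb on either side was assigned to these genes. This gave 27 peaks at 25 separate sites, out of lists of 1846, 3461, 6548, 498 and 160 peaks. ChIP-seq measures where a protein sits on DNA through the fragments that its antibody pulls down. The study used it to ask where LSD1, GFI1 and SPI1 bind in myeloid leukemia cell lines, and whether GFI1 binding needs LSD1. THP1 is a monocytic human leukemia line, and its lists were SPI1 and GFI1. K562 is a human leukemia line with erythroid features, here with stable Cas9. Its lists were LSD1 and GFI1 in cells carrying the non-targeting guide (sg-NT) and GFI1 in cells carrying a guide against LSD1 (sg-LSD1). Each ChIP used 5 μg of antibody, and each list came from 1 library, so that no test between lists was possible and the intervals given below cover counting error only. The lists hold no expression values, and no LSD1 ChIP of sg-LSD1 cells was analysed here. Neither the identity of the lines nor the loss of LSD1 was therefore checked from these lists. The study itself reports a western blot with strongly lowered LSD1 protein in its LSD1-depleted K562 lines. The study describes GFI1 antibodies as difficult in this assay, which bears on how many GFI1 sites were found.

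Blood cell identity is set by a small group of transcription factors that bind together and regulate one another. GATA factors bind GATA motifs, and with the bHLH proteins TAL1 or LYL1 and the bridging proteins LMO2 and LDB1 they form complexes on the enhancers of erythroid and stem cell genes. LSD1, a histone demethylase of the CoREST complex, is brought to chromatin by the SNAG domain repressors GFI1 and GFI1B, while SPI1 (PU.1) is the ETS factor of myeloid cells and antagonises GATA1.

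GATA cores, the letters AGATAA or TGATAA on either strand, lay within 50 bp centred on the summit of 6 of the 18 LSD1 peaks, at 4 genes, and began between 7 bp before and 2 bp after the summit. These 6 stretches are shown because the core sits almost at the point of highest LSD1 signal. Each line gives 100 bp of the GRCh38 reference, plus strand, with the summit after base 50, and capitals mark a GATA core (TTATCT or TTATCA where it lies on the minus strand), or the RUNX core TGTGGT in ZFPM1 +8.84 kb. E-boxes and shorter matches are not marked. Here and below, within 50 or 200 bp means a window of that total length centred on the summit. The intervals are chr11:33885479-33885578 in intron 1 of LMO2, chr12:54304455-54304554 upstream of NFE2 inside COPZ1, chr16:88455945-88456044, chr16:88462073-88462172 and chr16:88497967-88498066 in introns of ZFPM1, and chr7:50336088-50336187 in intron 3 of IKZF1.
LMO2 intron 1: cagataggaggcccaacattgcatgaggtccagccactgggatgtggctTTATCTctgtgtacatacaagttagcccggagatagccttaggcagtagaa
NFE2 upstream: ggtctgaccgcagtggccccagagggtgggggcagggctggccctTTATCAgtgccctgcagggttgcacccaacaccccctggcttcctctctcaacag
ZFPM1 +2.72 kb: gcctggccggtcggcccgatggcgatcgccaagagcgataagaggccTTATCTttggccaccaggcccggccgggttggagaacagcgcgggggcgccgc
ZFPM1 +8.84 kb: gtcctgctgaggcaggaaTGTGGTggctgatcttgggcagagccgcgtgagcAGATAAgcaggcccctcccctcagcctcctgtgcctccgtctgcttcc
ZFPM1 +44.7 kb: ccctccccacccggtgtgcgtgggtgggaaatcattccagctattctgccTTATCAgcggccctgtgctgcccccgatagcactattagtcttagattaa
IKZF1 intron 3: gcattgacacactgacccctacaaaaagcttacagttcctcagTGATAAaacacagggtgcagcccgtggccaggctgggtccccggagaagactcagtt

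Other LSD1 summits at these genes carried other letters. The summit downstream of TAL1 held the only GFI1 core (AATCAC) in the 50 bp centred on an LSD1 summit of the set. The LYL1 intron held the RUNX core TGTGGT, and the weakest ZFPM1 peak held the KLF core CCACACCC. In the same format, with capitals for these cores, chr1:47209890-47209989, chr19:13100182-13100281 and chr16:88501664-88501763 read as follows.
TAL1 downstream: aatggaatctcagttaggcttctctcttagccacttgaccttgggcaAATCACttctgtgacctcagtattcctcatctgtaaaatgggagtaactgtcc
LYL1 intron 3: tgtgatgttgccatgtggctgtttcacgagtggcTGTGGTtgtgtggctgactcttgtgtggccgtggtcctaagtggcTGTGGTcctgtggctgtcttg
ZFPM1 +48.4 kb: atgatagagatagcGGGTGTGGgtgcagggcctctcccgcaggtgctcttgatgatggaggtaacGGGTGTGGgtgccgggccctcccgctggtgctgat

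The counts by gene were read against all protein-coding genes. LSD1 had a peak at 9 of the 10 genes (90%, 95% Wilson interval 59.6 to 98.2) beside 29.9% of all genes. SPI1 had a peak at 5 of 10 (50%, 23.7 to 76.3) beside 9.57% of all genes. GFI1 had a peak at 1 of 10 in THP1 cells (10%, 1.79 to 40.4) beside 17.5%, and the interval spans that share. In sg-NT K562 cells GFI1 had a peak at 2 of 10 (20%, 5.67 to 51.0) beside 2.83%. In sg-LSD1 cells GFI1 was at 0 of 10, which allows a share of up to 27.8%, beside 0.928% of all genes, so that a count of 0 is near the background of that short list. The shares for LSD1, SPI1 and GFI1 in sg-NT cells thus lay above the background, and those for the other GFI1 lists did not. Because the genes were chosen with earlier results of these data known, these shares are descriptions and not a test. For GFI1 in sg-NT cells the share rested on 2 peaks, 1 of them at the calling limit.

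**Figure D1:**
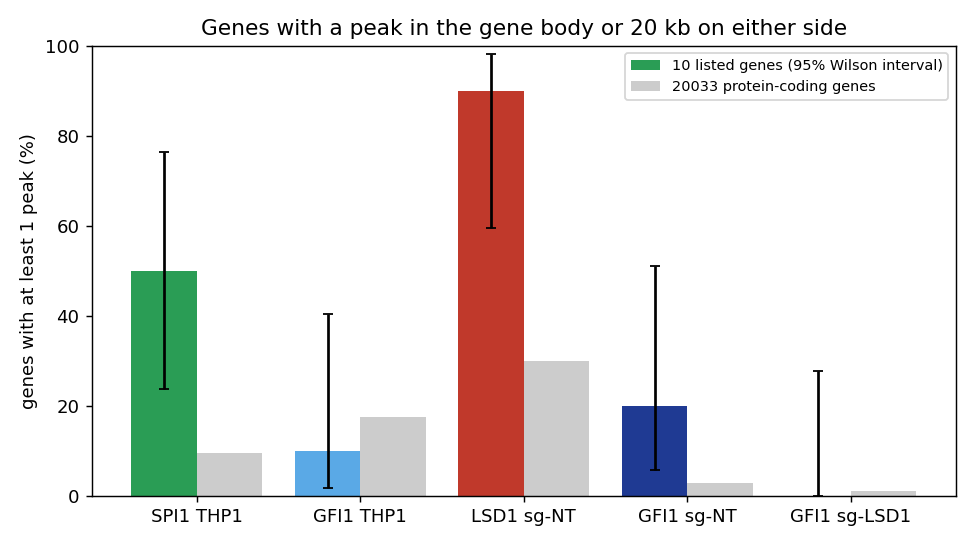
Share of genes (%) with at least 1 peak in the gene body or 20 kb on either side, for the 10 listed genes (coloured bars, error bars 95% Wilson intervals) and for all 20033 protein-coding genes (grey bars), in each of the 5 lists. LSD1 reached 90% of the listed genes beside 29.9% of all genes, while GFI1 in THP1 cells reached 10% beside 17.5%.

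The windows searched were not longer than those of other genes, with a median of 54.9 kb beside 67.5 kb over all genes. Of the 10 genes, 4 had 2 or more LSD1 peaks, beside 10.7% of all genes. Per 100 kb of window, the 10 genes held 2.32 LSD1 peaks (exact Poisson interval 1.38 to 3.67) and all genes 0.329. ZFPM1 weighed heavily on this density, and without it 11 LSD1 peaks and 1.69 per 100 kb (0.842 to 3.02) remained. SPI1 peaks stood at 0.645 per 100 kb (0.209 to 1.50) beside 0.0837 over all genes. GFI1 peaks stood at 0.258 per 100 kb (0.0312 to 0.932) in both THP1 and sg-NT K562 cells, beside 0.166 and 0.0228 over all genes. With 20 kb on either side of the canonical start only, LSD1 was at 7 of the 10 genes (21.3% of all genes) and SPI1 at 2 (5.32% of all genes). GFI1 was then at 1 gene in THP1 cells (11.5% of all genes), at 1 in sg-NT cells (1.53%) and at 0 in sg-LSD1 cells (0.479%).

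**Figure D2:**
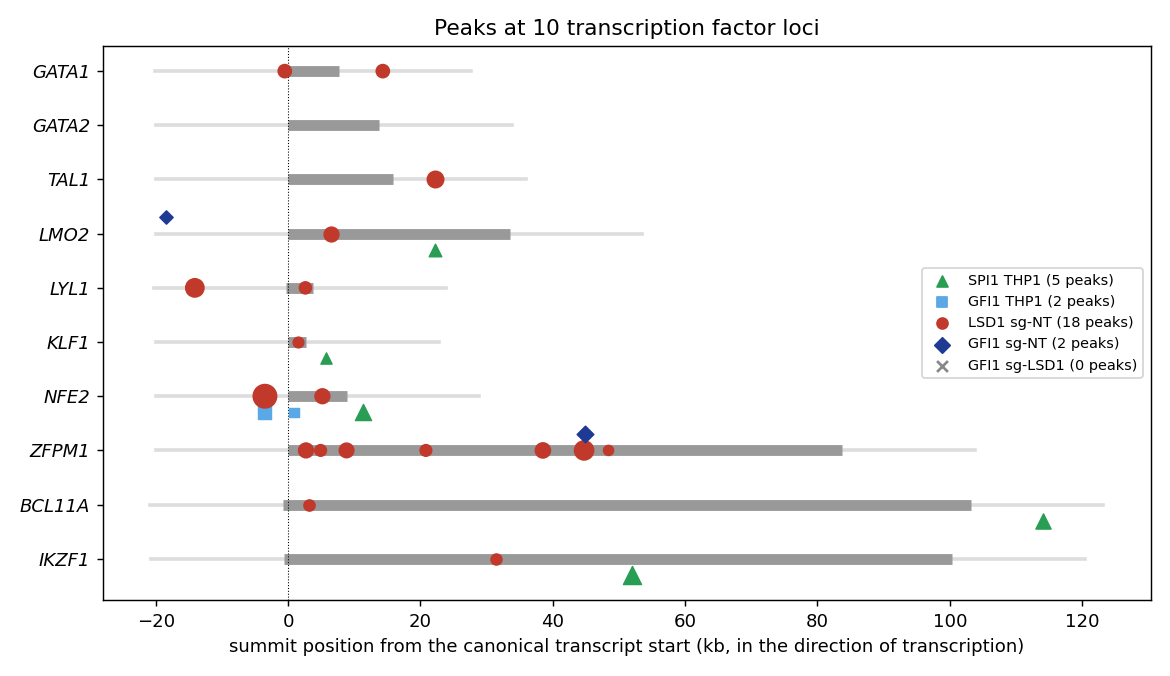
Position of each of the 27 peak summits relative to the start of the canonical transcript (kb, in the direction of transcription). Thick bars are gene bodies, thin bars the 20 kb on either side, and the area of a symbol grows with the −log10 p of its peak. ZFPM1 holds 7 LSD1 summits, GATA2 holds no symbol, and only at NFE2 and ZFPM1 do symbols of different lists stand at the same position.

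The GATA factors differed from each other. GATA1, the master regulator of red cells and platelets (chrX:48786540-48794311, plus strand), had 2 LSD1 peaks and no other peak. One peak (chrX:48785947-48786291) lay 0.491 kb upstream of the canonical start, and the other (chrX:48800687-48801029) lay 14.3 kb downstream of it, 463 bp before the start of HDAC6. Fold, here and below, is the ratio of fragments to local background with 1 added to each. Both peaks were enriched 8.59-fold at −log10 p 14.0, resting on 13 fragments over the summit (exact Poisson interval 6.92 to 22.2). They were thus of one strength, a little above the LSD1 median of 6.99-fold. Neither held a GATA core in the 50 bp centred on the summit. The downstream summit had 1 in the 200 bp centred on it.

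GATA2, which maintains stem and progenitor cells (chr3:128479427-128493201, minus strand), was the only one of the 10 genes with no peak in any list. Its nearest LSD1 peak, chr3:128457301-128457700, lay 21.7 kb beyond the 3′ end of the gene and 35.7 kb downstream of the canonical start, just outside the window. That peak was enriched 12.9-fold at −log10 p 24.2, stronger than either GATA1 peak. The nearest GFI1 peak of THP1 cells lay 110 kb away and the nearest SPI1 peak 313 kb away.

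TAL1, LYL1 and LMO2 are the partners with which GATA factors assemble. TAL1, a bHLH factor needed for the origin of blood (chr1:47216290-47232225, minus strand), had 1 LSD1 peak at chr1:47209736-47210147, 22.3 kb downstream of the start and 6.14 kb past the gene's end. Its fold was 12.2, its −log10 p 23.9 and its fragment number 22 (13.8 to 33.3). By −log10 p it came after the upstream peaks of NFE2 and LYL1 and the strongest of ZFPM1, and it lay in no protein-coding gene. The GFI1 core shown above began 3 bp before this summit, yet no GFI1 list had a peak there, and the nearest GFI1 peak of THP1 cells was 86.3 kb from the gene.

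LYL1, the closest relative of TAL1 (chr19:13099033-13103161, minus strand), had 2 LSD1 peaks of unequal strength. The peak in intron 3 (chr19:13100126-13100391) had 6.82-fold enrichment at −log10 p 11.1 from 13 fragments, close to the list's medians. The peak 14.1 kb upstream (chr19:13116777-13117157) had 15.3-fold enrichment at −log10 p 30.5 from 24 fragments (15.4 to 35.7), and stood at the 94.0th percentile of the LSD1 list. The upstream peak was the stronger, but its summit lay 78 bp past a start of NACC1 and inside TRMT1, so that its assignment to LYL1 rested on distance alone. In the 200 bp at the intron summit the RUNX core occurred 6 times in a stretch of repeated letters.

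LMO2, the bridge between bHLH and GATA proteins (chr11:33858576-33892076, minus strand), was the only gene of the set with an SPI1, an LSD1 and a K562 GFI1 peak. The LSD1 peak in intron 1 (chr11:33885372-33885693), 6.55 kb downstream of the canonical start, had 10.0-fold enrichment at −log10 p 18.4 from 18 fragments (10.7 to 28.4). The SPI1 peak of THP1 cells (chr11:33869825-33870183) had 7.83-fold enrichment at −log10 p 12.1 from 10 fragments (4.80 to 18.4). It lay in a UTR exon 22.1 kb downstream of the canonical start and 114 bp before the start of a shorter LMO2 transcript. The GFI1 peak of sg-NT cells (chr11:33910329-33910585), 18.4 kb upstream, had 4.12-fold enrichment at −log10 p 5.07 from 5 fragments (1.62 to 11.7). It ranked 498 of 498 in its list and had a −log10 q of 1.25, so that this peak stood at the calling limit. The 3 peaks lay apart and none overlapped another.

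KLF1 and NFE2 act later, in the red cell and megakaryocyte programme. KLF1, the erythroid activator of the adult beta-globin gene (chr19:12884422-12887201, minus strand), had an LSD1 peak in coding exon 2 (chr19:12885359-12885721) with 5.35-fold enrichment at −log10 p 7.75 from 10 fragments (4.80 to 18.4). It stood at the 18.8th percentile of its list, and the 200 bp at its summit had a GC content of 74.5%. The SPI1 peak of THP1 cells (chr19:12881380-12881665) had 5.83-fold enrichment at −log10 p 8.80 from 11 fragments. It lay 24 bp before the start of DNASE2, the next gene, and 5.71 kb downstream of the KLF1 start. This SPI1 peak was at the 13.2th percentile, so that both peaks of KLF1 stood in the lower part of their lists.

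NFE2, a bZIP factor of platelet and globin genes (chr12:54292111-54301015, minus strand), was the only gene with peaks from THP1 cells for both SPI1 and GFI1. The strongest LSD1 peak of the set lay 3.49 kb upstream of its start, at chr12:54304282-54304757, inside COPZ1. Its summit was nearer to a start of COPZ1, at 3.30 kb, so that its assignment to NFE2 rested on distance alone. This LSD1 peak had 20.6-fold enrichment at −log10 p 52.5 from 43 fragments (31.1 to 57.9), and ranked 84 of 6548. A GFI1 peak of THP1 cells (chr12:54304387-54304727) lay wholly within it, with summits 22 bp apart, 7.72-fold enrichment at −log10 p 12.2 from 12 fragments (6.20 to 21.0). This was 1 of 2 sites of the set found in more than 1 list, and it joined different factors in different lines. Of the 18 LSD1 peaks, 1 met a GFI1 peak of THP1 cells (5.56%, 0.988 to 25.8), near the 4.597% of the whole LSD1 list. From the GFI1 side, 1 of 2 peaks of THP1 cells met an LSD1 peak (50%, 9.45 to 90.5), beside 8.697% of that list. Both shares rested on this site alone. The GATA core of the sequence shown above began 5 bp before the LSD1 summit and 27 bp before the GFI1 summit.

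The other NFE2 peaks did not coincide. A second LSD1 peak in intron 1 (chr12:54295712-54296192), 59 bp before the start of another NFE2 transcript, had 8.92-fold enrichment at −log10 p 18.5 from 22 fragments. A second GFI1 peak of THP1 cells in intron 1 (chr12:54300071-54300412), 0.915 kb downstream of the canonical start, had 4.72-fold enrichment at −log10 p 6.09 from 6 fragments (2.2 to 13.1). The SPI1 peak (chr12:54289436-54289785), 11.3 kb downstream of the start and 5.43 kb past the start of its neighbour HNRNPA1, had 12.3-fold enrichment at −log10 p 22.4 from 18 fragments (10.7 to 28.4). SPI1 and GFI1 thus lay at the same gene in THP1 cells but not at the same site.

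ZFPM1 (FOG1), the cofactor that GATA1 needs in most of its erythroid functions (chr16:88453280-88537031, plus strand), held 7 LSD1 peaks, a number that 0.18% of all genes reached or passed. The most at any protein-coding gene was 33. Their summits spanned 45.7 kb of introns 1 and 3, with 2.21 to 17.7 kb between neighbours. The strongest (chr16:88497479-88498134, intron 3, 44.7 kb from the start) had 16.6-fold enrichment at −log10 p 33.7 from 26 fragments (17.0 to 38.1), and ranked 291 of 6548. The next by −log10 p were chr16:88491545-88492099, with 10.2-fold enrichment at −log10 p 19.7 from 20 fragments, and chr16:88455700-88456161, with 8.92-fold enrichment at −log10 p 18.5 from 22 fragments. The other 4 were enriched 4.91- to 10.2-fold at −log10 p 6.45 to 17.9. These peaks of 1 gene are not replicates of each other.

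The strongest ZFPM1 site was also a GFI1 site. In sg-NT cells a GFI1 peak (chr16:88497967-88498260) shared 168 bp with it, with summits 66 bp apart, 6.89-fold enrichment at −log10 p 10.2 from 9 fragments (4.12 to 17.1). It ranked 282 of 498 in the GFI1 list. In sg-LSD1 cells no peak was listed there or anywhere else at ZFPM1. In that library at least 6 fragments were needed for a call at the lowest background (0.546 fragments), so that a site with 5 fragments or fewer would not have been listed.

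BCL11A and IKZF1 direct other lineages as well. BCL11A, the repressor of fetal globin and a B cell factor (chr2:60450520-60554467, minus strand), had an LSD1 peak in intron 1 (chr2:60550395-60550692) with 6.14-fold enrichment at −log10 p 8.82 from 9 fragments (4.12 to 17.1). Its SPI1 peak of THP1 cells (chr2:60439366-60439655) lay 10.9 kb past the gene's end, with 11.1-fold enrichment at −log10 p 19.5 from 16 fragments (9.15 to 26.0). IKZF1 (Ikaros), a lymphoid factor that also acts in red cells (chr7:50304068-50405101, plus strand), had both peaks in intron 3. Its LSD1 peak (chr7:50335978-50336233) had 5.81-fold enrichment at −log10 p 8.50 from 10 fragments (4.80 to 18.4). Its SPI1 peak (chr7:50356539-50356896) had 13.6-fold enrichment at −log10 p 29.2 from 27 fragments (17.8 to 39.3), the strongest SPI1 site of the set and rank 158 of 1846. At both genes the SPI1 peak stood high in its own list and the LSD1 peak in the lower part of its list, at the 72.7th and 91.5th against the 30.4th and 24.6th percentile by −log10 p.

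**Figure D3:**
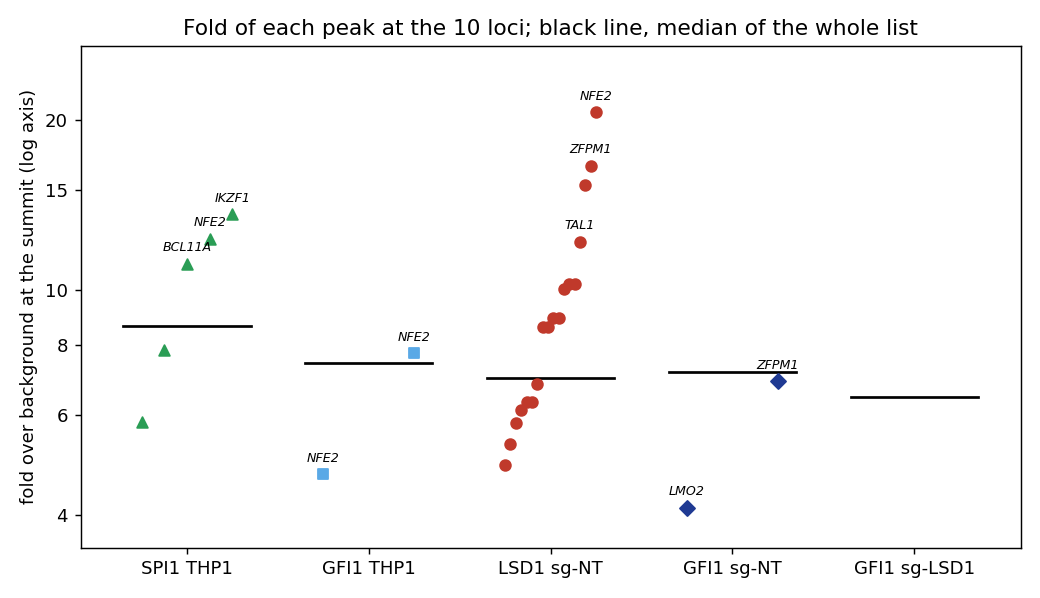
Fold over the local background (log axis) of each peak at the 10 genes, by list, ordered from low to high within a list. The black line is the median of the whole list. The LSD1 peaks run from 4.91 to 20.6 around a list median of 6.99, and both sg-NT GFI1 points lie under their list's median of 7.15.

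As a group the 18 LSD1 peaks had medians of 8.75-fold and of 15.9 in −log10 p, beside 6.99 and 11.3 over the whole list. They rested on a median of 14.5 fragments beside 13. Of the 18, 11 ranked above the middle of the list. Their local background was like that of the list, at a median of 0.892 beside 0.867 fragments, but the 200 bp at their summits were richer in GC, at a median of 60.5% beside 50.5%. The part of GC content in their strength was not tested. The 5 SPI1 peaks had a median fold of 11.1 beside 8.62, and the others were too few for a median to add to the values above.

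By place in the listed gene, 12 LSD1 peaks lay in introns, 1 in a coding exon, 3 upstream and 2 downstream of the gene. Shares of the whole list are not given for these places. Within 1000 bp of a protein-coding start lay 5 of 18 (27.8%, 12.5 to 50.9), near the 25.2% of the whole list. Among these were the intron peaks of NFE2 and BCL11A, 59 and 353 bp from a start. The nearest protein-coding start belonged to the listed gene for 14 of the 18. For SPI1 this was the case for 3 of 5 peaks, and a start within 1000 bp for 2 of 5 (40%, 11.8 to 76.9) beside 13.4%. Promoter windows around RefSeq starts (GRCh38.p14) were matched for 8 of the 10 genes, all but LMO2 and NFE2. A peak of any list met 0 of the 8, beside 6.95% of the protein-coding genes matched, so that a count of 0 is near the background.

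The motif content at the LSD1 summits was set beside the whole LSD1 list, searched in the same way on both strands. The GATA core was present within 50 bp at 6 of 18 (33.3%, 16.3 to 56.3) beside 11.7%, and within 200 bp at 9 of 18 (50%, 29.0 to 71.0) beside 34.8%. Of the former, 3 came from ZFPM1. Without that gene the core was present at 3 of 11 (27.3%, 9.75 to 56.6), an interval that spans the share of the list. The 4 letters GATA alone were present at 11 of 18 (61.1%, 38.6 to 79.7) beside 25.2%. Within 50 bp the GFI1 core was present at 1 of 18 (5.56%, 0.988 to 25.8) beside 2.47%, and the RUNX core at 1 of 18 beside 5.70%. The KLF core was present at 1 of 18 beside 0.764%, and the E-box CANNTG, the site of TAL1 and LYL1, at 2 of 18 (11.1%) beside 26.7%. In the 50 bp centred on the summit, the SPI1 core GAGGAAGT was present at 0 of 18 (up to 17.6%), beside 0.321% of the list. The NFE2 and AP-1 core TGACTCA was also present at 0 of 18 there, beside 1.59%. Within 200 bp each was present at 1 of 18, both at the upstream LYL1 summit, beside 1.92% and 7.65%. A match is a run of letters and not a measured site.

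**Figure D4:**
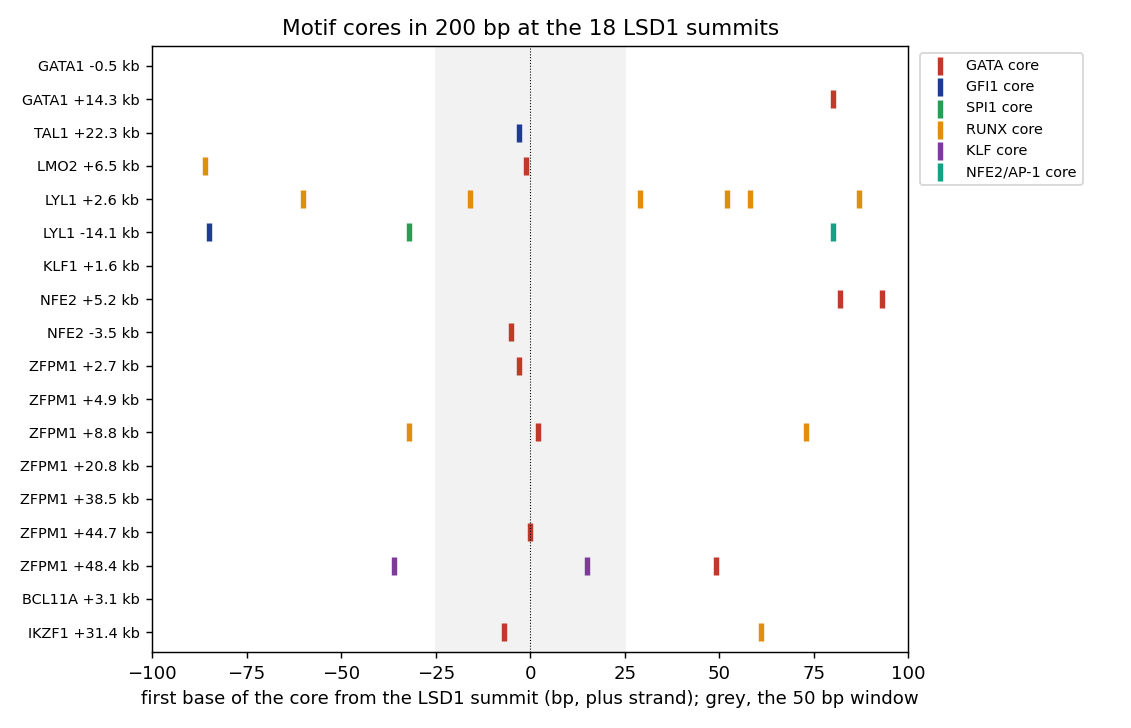
First base of each motif core relative to the LSD1 summit (bp, plus strand) in the 200 bp at the 18 LSD1 summits, 1 row per peak named by gene and distance from the start. The grey band is the 50 bp window, and the E-box is left out. GATA cores in the band (6 of 18 rows) stand between −7 and 2 bp.

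The SPI1 and GFI1 summits were searched for the cores of their own factors. The SPI1 core GAGGAAGT was absent from the 50 bp at all 5 SPI1 summits, which allows up to 43.4%, beside 26.4% of the whole list. The shorter GAGGAA was present at 3 of 5 (60.0%, 23.1 to 88.2) beside 43.0%. At IKZF1 it began at the summit base itself. The GFI1 core was absent from both GFI1 summits of THP1 cells, beside 10.1% of that list, and from both of sg-NT cells, beside 9.84%, which allows up to 65.8% in either. With so few summits, these counts of 0 are within counting error of the whole lists. The 100 bp at the strongest SPI1 summit and at both K562 GFI1 summits are shown for comparison with the LSD1 sites (chr7:50356656-50356755, chr16:88498033-88498132 and chr11:33910449-33910548, plus strand). Capitals mark GAGGAA, read here as TTCCTC on the plus strand, and the stretches at the GFI1 summits hold no GATA, GFI1, SPI1, RUNX, KLF or NFE2 core.
IKZF1 SPI1: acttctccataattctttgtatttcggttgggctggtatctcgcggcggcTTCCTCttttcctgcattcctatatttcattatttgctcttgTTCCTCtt
ZFPM1 GFI1: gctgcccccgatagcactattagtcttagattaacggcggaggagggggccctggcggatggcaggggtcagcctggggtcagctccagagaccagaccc
LMO2 GFI1: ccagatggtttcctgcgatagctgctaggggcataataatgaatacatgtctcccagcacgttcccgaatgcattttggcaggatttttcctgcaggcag

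The lists were then compared site by site, counting peaks with at least 1 bp in common. Of the 25 sites, 23 were in 1 list and 2 in more than 1. The share of all sites found in more than 1 list was not computed, so these counts have no background beside them. In sg-NT K562 cells 1 of 2 GFI1 peaks met an LSD1 peak (50%, 9.45 to 90.5), beside 78.3% of the whole GFI1 list. Read from the other side, 1 of 18 LSD1 peaks met a GFI1 peak (5.56%, 0.988 to 25.8), beside 5.96%. Both shares were within counting error of the lists as a whole. The peak without LSD1 was the one at LMO2 that stood last in its list.

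The GFI1 lists with and without the LSD1 guide gave few peaks to compare at these genes. Of the 2 peaks that GFI1 had in control cells, 0 were in the sg-LSD1 list, which allows up to 65.8%, beside 10.2% of all GFI1 peaks. Those peaks rested on 9 and 5 fragments, where the sg-LSD1 library needed 6 for a call at its lowest background.

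Between lines, GFI1 had peaks at NFE2 in THP1 cells, and at LMO2 and ZFPM1 in sg-NT K562 cells. Of the 10 genes 0 had a peak in both lines, which is near the background of 1.13% of all genes. The line and the library cannot be told apart in this comparison. Within THP1 cells, 0 of 5 SPI1 peaks met a GFI1 peak (up to 43.4%), beside 10.5% of the SPI1 list. SPI1 in THP1 cells and LSD1 in K562 cells differ in line and factor at once. At 5 of the 10 genes both had a peak, beside 4.11% of all genes. Of the 18 LSD1 peaks 0 met an SPI1 peak (up to 17.6%), beside 0.779% of the LSD1 list, and of the 5 SPI1 peaks 0 met an LSD1 peak (up to 43.4%), beside 2.76% of the SPI1 list. These counts of 0 are near the shares of the whole lists. The nearest LSD1 summit was 4.15 kb from the SPI1 summit at KLF1, 6.13 kb at NFE2, 15.6 kb at LMO2, 20.6 kb at IKZF1 and 111 kb at BCL11A. The genes with SPI1 peaks were LMO2, KLF1, NFE2, BCL11A and IKZF1, and those without were both GATA genes, TAL1, LYL1 and ZFPM1.

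The wider network, also chosen with earlier results of these data known, was counted in the same windows. Of 16 partners and neighbours of these factors in the network, 12 had an LSD1 peak (75.0%, 50.5 to 89.8), beside the 29.9% of all genes. These were LDB1, CBFA2T3, TCF3, SSBP3, MAFK, BACH1, ZBTB7A, SOX6, MYB, KLF3, HHEX and HLF. CBFA2T3 (ETO2), a corepressor of the TAL1 complex, had 3 LSD1 peaks, 1 GFI1 peak in sg-NT cells and 1 in THP1 cells. Their windows were longer, with a median of 91.8 kb, and per 100 kb they held 0.581 LSD1 peaks (0.355 to 0.897), between the 2.32 of the 10 genes and the 0.329 of all genes. GFI1 of THP1 cells had a peak at 7 of the 16 (43.8%, 23.1 to 66.8), beside 17.5% of all genes. Per 100 kb the partners held 0.319 of these peaks (0.159 to 0.572), an interval that spans the 0.166 of all genes. HHEX had 3 of them, MEIS1 and BACH1 had 2 each, and MECOM and HLF had 0. SPI1 had a peak at 1 of the 16, SSBP3, beside 9.57%. GFI1 of sg-NT cells had a peak at 2, CBFA2T3 and BACH1, beside 2.83%, and the sg-LSD1 list had 0, beside 0.928%. The last count and that of SPI1 are near the background.

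Paralogs of the 10 genes that serve other tissues or lineages were counted in the same way. Of 12, 5 had an LSD1 peak (41.7%, 19.3 to 68.0), beside 29.9% of all genes, at TAL2, LMO1, KLF2, NFE2L2 and ZFPM2, with 0.383 per 100 kb (0.175 to 0.728). GATA3, LMO4, KLF4, BCL11B and IKZF2 had no peak in any list. The share of all genes without a peak in any list was not computed, so this has no background beside it. SPI1 had a peak at TAL2, NFE2L2 and IKZF3 (9.57% of all genes), GFI1 of THP1 cells at NFE2L1 (17.5%) and GFI1 of sg-NT cells at LMO1 (2.83%). The interval of the LSD1 share spans that of all genes and overlaps those of the 10 genes and of the partners. The interval of the LSD1 density spans the 0.329 of all genes and overlaps that of the partners. It lies below the 1.38 to 3.67 of the 10 genes. The differences between these groups and between the lists were not tested.

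Genes with the most similar peak counts over the 5 lists were looked up for the 3 listed genes with the most peaks, by the sum of absolute differences, which is 0 for equal counts. ZFPM1 had equal counts with 2 genes, GFI1B and ARVCF, each with 7 LSD1 peaks and 1 GFI1 peak in sg-NT cells, and BAIAP2 differed by 1. GFI1B is the paralog of GFI1 in red cells and megakaryocytes. NFE2 had equal counts with 22 genes, the closest in window length being FCRLA, LILRB3 and HNRNPA1, of which HNRNPA1 is its neighbour and shares its peaks. LMO2 had equal counts with 12 genes, with NARF, ENSG00000255508 and XKR7 closest in window length.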

How the data were processed

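Peak lists of 5 ChIP-seq libraries were analysed, 1 per condition. Inputs and murine H3K4me1 ChIPs were not analysed here. The authors used Trim Galore 0.6.1 for trimming, Bowtie2 2.5.4 for alignment to GRCh38 and Picard 3.1.0 against duplicates. Peaks were called per library by MACS2 2.2.9.1 with p under 1e-05, and blacklisted regions were taken out. Whether input served as the control is not given in the sources used here. Deposited fold is the ratio of pileup to local background at the summit, with 1 added to each. Deposited −log10 p and −log10 q are the caller's p-value and q-value. The deposited score, which repeats the p-value, was not used.

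Read totals were not at hand. Fold was taken as (fragments + 1)/(background + 1) and p as a Poisson tail, and both were solved for a whole number of fragments within 0.002 of the −log10 p. This succeeded for 99.992% of 12513 peaks. The solving step was tested on data simulated with the same formulas. That test could not show whether the deposited values follow them. The depth was low, with medians of 11 to 13 fragments per list, and the fewest fragments callable at the lowest background were 5 or 6.

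Gene windows (GENCODE 44, 20 kb on either side), overlaps of at least 1 bp and motif cores in 50 bp at the summit were computed in Python 3.11.15 with pandas 2.3.3, numpy 2.4.6, scipy 1.17.1 and pysam 0.24.0. A percentile is the share of the list at or below a value. Distances run from the start of the canonical transcript. Shares have 95% Wilson intervals, and fragment numbers and densities exact Poisson intervals. All peaks at each gene are described where there were at most 3, and otherwise the 3 with the largest −log10 p. The listed genes, the partners and paralogs were chosen with earlier results of these data known. The alternatives tried were other windows, overlap rules, motif letters and p thresholds.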

Additional observations from a re-analysis of the deposited data

How the results depend on the processing

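The counts that rest on few peaks moved with the window. SPI1 was at 2 listed genes with 2 peaks in gene bodies alone and also with 20 kb around the start, and at 3 genes with 3 peaks when the nearest protein-coding start had to be that of the listed gene, a rule added after seeing the data. GFI1 of THP1 cells was at 4 genes with 6 peaks in windows of 50 kb, and had 1 peak at −log10 p of at least 8, in gene bodies alone and by the nearest start. GFI1 of sg-NT cells was at 1 gene with 1 peak at −log10 p of at least 8, in gene bodies alone and with 20 kb around the start, and its overlap with LSD1 at −log10 p of at least 8 was 100% (1 of 1). LSD1 was at 7 to 10 genes under every window and threshold tried. For gene bodies alone, 50 kb windows, the nearest start and the stricter p threshold, no share of all genes is given here. These counts can therefore not be set against a background. Leaving out ZFPM1, also added after seeing the data, left 11 LSD1 peaks. The letters GATA alone gave 61.1% of LSD1 summits. A pseudocount of 0 gave whole fragment numbers for 0.503% of peaks, by construction of the fold. The other 77 values stayed within the limits set for them, but these limits were wide. LSD1 peak counts of 12 (20 kb around the start) and 27 (50 kb windows), in place of 18, were within them. So was a GATA core share of 50% in 200 bp in place of 33.3%. No paired analysis was possible because each condition had 1 library, and no library could be left out. Shallow depth limits the lists to sites with at least 5 or 6 fragments.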
